A study of Arabidopsis thaliana with 30 samples.

Results

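Overexpression of AtNIGT1.2 was followed in shoots of nitrogen-starved Arabidopsis thaliana seedlings by setting the 3 overexpressor shoot arrays against the 3 arrays of starved wild type shoots, across every probe set of the deposited shoot table. These 6 arrays are part of a set of 30, with 5 groups of 3 arrays in each of 2 tissues. The study was made to find genes that AtNIGT1.2 acts on. Wild type was Col-0, and both genotypes were pre-grown on half-strength Murashige-Skoog agar, moved at 7 days to MGRL plates that held no nitrogen source, and harvested 3 days later, at 10 days of age. The labels give neither the promoter of the transgene nor the number of lines or of seedlings behind a sample, and the probe set does not tell transgene transcripts from those of the resident gene. A further 3 groups of 10-day-old shoots served for comparison. One was wild type moved at 7 days to plates with 5 mM NH4NO3 for 3 days, called sufficient wild type here. The others were a line with an estradiol-inducible AtNIGT1.2-VP gene, moved at 9 days to plates with 5 mM NH4NO3, with 10 mM estradiol (the concentration the labels give) or without it, for 24 h. The labels do not spell out VP and do not say whether the uninduced plants received a solvent.

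NIGT1 proteins are GARP-type DNA-binding repressors. In Arabidopsis their genes are induced by nitrate through NLP activators, and the proteins bind genes of high-affinity nitrate uptake and their own family's genes, as well as genes of the response to phosphate shortage. A shoot without nitrogen normally induces uptake and recycling of nitrogen, cytosolic glutamine synthetase and senescence, and lowers photosynthesis.

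Levels are log2 RMA values of Affymetrix arrays, in which a difference of 1 is a doubling of signal. The test took in 15922 of 22746 probe sets, those whose mean level reached the 30th percentile, and these covered 15098 genes. Each change is overexpressor minus wild type with the standard error (SE) of a limma fit, and "rose", "fell", "higher" and "lower" without further words mean an adjusted p under 0.05 (Benjamini-Hochberg, two-sided). Array medians lay between 6.73 and 6.76 in the overexpressor and between 6.70 and 6.73 in wild type. Pearson's r over probe sets was 0.9946 to 0.9958 within the overexpressor, 0.9944 to 0.9971 within wild type and 0.9725 to 0.9775 between the genotypes. The titles call the replicates biological without naming separate cultures, so p-values speak only of the spread among the samples fitted. That spread was estimated over all 15 shoot arrays, not the 6 compared alone. Light harvesting and photosystem genes, which mark green shoot tissue, had mean levels of 12.07 or more on all 6 arrays. Of 11 root markers, 5 passed the filter and none of them was called. The mean level of all 11 was 5.02 to 5.26 in the overexpressor and 4.99 to 5.13 in wild type.

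About as many probe sets changed as did not, but the strong changes ran downward. The test called 8163 of 15922 probe sets (51.3%), of which 4874 were higher (30.6%) and 3289 lower (20.7%). Counts within the gene lists below are to be read beside these shares of higher and lower calls. Among changes of at least 1, that balance turned: 641 probe sets were lower (4.03%) and 296 higher (1.86%). By size, higher calls made up 67.2% of the calls under 0.25, 58.1% of those between 0.5 and 1, 36.0% between 1 and 2, and 10.7% between 2 and 3. Only 3 probe sets rose by 3 or more, against 29 that fell by that much. The excess of strong decreases appeared at every level of expression, with 108 against 75 among the probe sets of lowest mean level (first of 4 equal bins) and 198 against 63 among those of highest. All 3 overexpressor values lay above all 3 wild type values for 5476 probe sets (34.4%) and below them for 3691 (23.2%). With each array centred on its median, the higher share of calls was 54.4% in place of 59.7%.

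**Figure D1:**
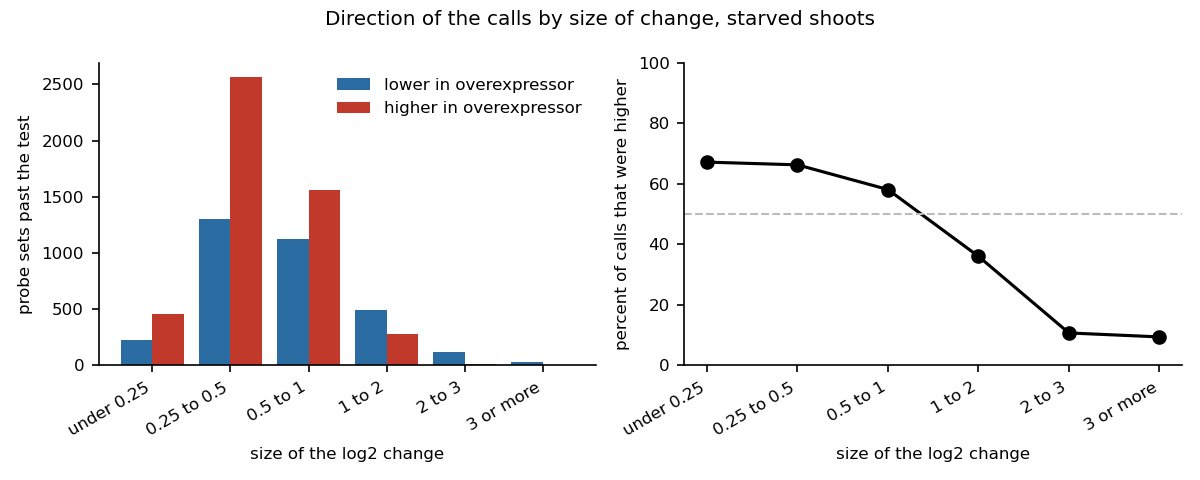
Left, number of probe sets past the test by size of the log2 change (bars, blue lower and red higher in the overexpressor). Right, percent of those calls that were higher, with a dashed line at equal numbers. The share of higher calls falls from 67.2% for changes under 0.25 to 9.38% for changes of 3 or more.

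The transgene stood out first. AtNIGT1.2 (AT1G68670) had levels of 13.86, 13.82 and 13.97 in the overexpressor against 6.39, 7.32 and 8.07 in starved wild type, a change of 6.62 ± 0.25 (adjusted p = 1.2e-11). Its values in sufficient wild type were 9.88, 9.77 and 9.65, so starved wild type lay lowest and the overexpressor highest, with no overlap. On the overexpressor arrays its probe set ranked 2nd to 4th of all, at the top of the scale, where signals can saturate. Saturation was not tested.

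Among its relatives the changes were uneven. NIGT1.1 (AT1G25550) fell to levels of 5.16, 4.69 and 4.99 from 7.90, 8.69 and 8.97 in starved wild type, a change of -3.57 ± 0.20 (adjusted p = 5.6e-10). Sufficient wild type held it at 10.49, 10.33 and 10.36, so its 3 groups formed separate steps with the overexpressor at the bottom. HHO6 was lower as well, at 5.39, 4.78 and 5.78 against 6.66, 6.55 and 6.75. HHO4 passed the test narrowly at -0.35 ± 0.14 (adjusted p = 0.045) with overlapping values, and lost that call without any of 4 of the 6 arrays (overexpressor 1 or 3, wild type 2 or 3), with changes between -0.28 and -0.32. HHO5 (-0.31 ± 0.13) and NIGT1.4 (AT1G13300; -0.12 ± 0.17) did not pass. NIGT1.3 (AT3G25790) lay below the filter, with 4.23, 4.14 and 4.33 against 4.1, 4.12 and 4.31.

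Genes for uptake of urea and ammonium were lower. DUR3, the high-affinity urea transporter, measured 5.70, 5.34 and 6.10 in the overexpressor and 10.04, 9.55 and 9.61 in starved wild type, a change of -4.02 ± 0.16 (adjusted p = 1.9e-11). Those overexpressor levels lay under the 6.65, 6.87 and 6.66 of sufficient wild type. AMT1;1, an ammonium transporter, had levels of 9.58, 9.43 and 9.60 against 11.20, 10.99 and 11.06, and fell by 1.55, to near its level in sufficient wild type (difference -0.17 ± 0.10, not called). Of the 15 tested genes of ammonium, urea and amino acid transport, 6 were lower and 1 higher, with a median of -0.23 beside 0.06 over all genes tested. AMT1;2 (-0.86), the basic amino acid carrier CAT1 (-0.91), AAP6 (-0.61) and LHT1 (-0.44) were the other lower members. The general amino acid permeases AAP1, AAP2, AAP4 and AAP5 had changes of 0.37, -0.26, -0.13 and 0.06 and were not called.

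Nitrate transporters moved both ways, at shares near those of all probe sets tested. Of 19 tested, 5 were lower (26.3%, against 20.7%) and 5 higher (26.3%, against 30.6%), with a median of -0.11. NRT2.5, the high-affinity carrier of long-starved plants, had levels of 4.22, 4.34 and 4.02 against 6.80, 5.89 and 5.96, and fell by 2.02 ± 0.19 (adjusted p = 3.8e-07). NPF7.3, which loads nitrate into the xylem in roots, fell by 1.70, and NRT3.1, the partner protein of NRT2 carriers, by 0.69. NRT2.1 did not pass, at 6.05, 5.34 and 6.89 against 6.53, 6.33 and 7.23, a change of -0.60 ± 0.28 (adjusted p = 0.081). Without overexpressor array 3 that change was -1.0, and without wild type array 2 it was -0.79, both past the test. NRT2.4 lay at 4.92, 4.97 and 4.92 against 5.00, 5.23 and 5.37, a change of -0.26 that did not pass, and passed at -0.36 without wild type array 1. NRT2.2, a near copy of NRT2.1, was below the filter.

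The higher members of that list included channels and vacuolar transporters. SLAH3, an anion channel that releases nitrate, had levels of 10.29, 8.68 and 9.49 in the overexpressor and 7.39, 7.43 and 7.61 in starved wild type, a change of 2.01 ± 0.25 (adjusted p = 5.2e-06). Its overexpressor arrays were more scattered than those of wild type, but the lowest of them was above every wild type value. CLCA, which exchanges nitrate for protons at the vacuole, rose by 1.14 to 9.16, 8.68 and 9.06, while sufficient wild type exceeded the overexpressor by a further 0.71. NPF3.1 rose by 1.47, NPF1.1 by 0.68 and the seed vacuole carrier NRT2.7 by 0.46.

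Of 13 nitrate assimilation genes, 4 were lower (30.8%, against 20.7% of all probe sets tested) and 6 higher (46.2%, against 30.6%), with a median of 0.17. Nitrite reductase NIR1 had levels of 7.84, 7.70 and 8.04 against 8.87, 9.26 and 9.09 in starved wild type and 10.76, 10.83 and 10.62 in sufficient wild type, a change of -1.22 ± 0.10 (adjusted p = 5.4e-08). The root-type ferredoxin reductase RFNR2 fell by 1.17 and the nitrate reductase NIA2 by 0.86, without overlap. NIA1, the other nitrate reductase, fell by 0.60 with overlapping values and missed the threshold when only the 6 arrays were fitted (adjusted p = 0.0521). The 6 higher members, among them the pentose phosphate enzymes PGD3 (AT5G41670; 0.48) and TRA2 (0.47) and ferredoxin FD3 (0.41), rose by 0.21 to 0.49.

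Glutamine synthesis held the strongest decrease among the named genes. GLN1;4, a cytosolic glutamine synthetase, had levels of 5.39, 5.02 and 4.97 in the overexpressor against 10.42, 10.08 and 9.98 in starved wild type, a change of -5.03 ± 0.16 (32.8-fold; adjusted p = 1.3e-12). Sufficient wild type lay between, at 6.06, 6.42 and 6.63, and still above the overexpressor. GLN1;1 fell by 1.18, the plastid enzyme GLN2 by 0.68 and GLN1;2 by 0.47, whereas GLN1;3 had a change of 0.23 that did not pass. In the list of glutamine and asparagine metabolism, 8 of 15 members were lower and 2 higher (median -0.36). The asparagine synthetase ASN3 fell by 1.63. The higher members were the glutamate dehydrogenase GDH2 (1.14) and the NADH-dependent glutamate synthase GLT1 (0.52). ASN1, the dark-induced asparagine synthetase, varied too much to be read, at 7.41, 4.94 and 6.61 against 4.65, 5.82 and 6.67. The asparaginase ASPGB1, which releases ammonium from asparagine, was outside that list and fell by 3.31 ± 0.12, from 9.69, 9.45 and 9.36 to 6.02, 6.2 and 6.34.

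**Figure D2:**
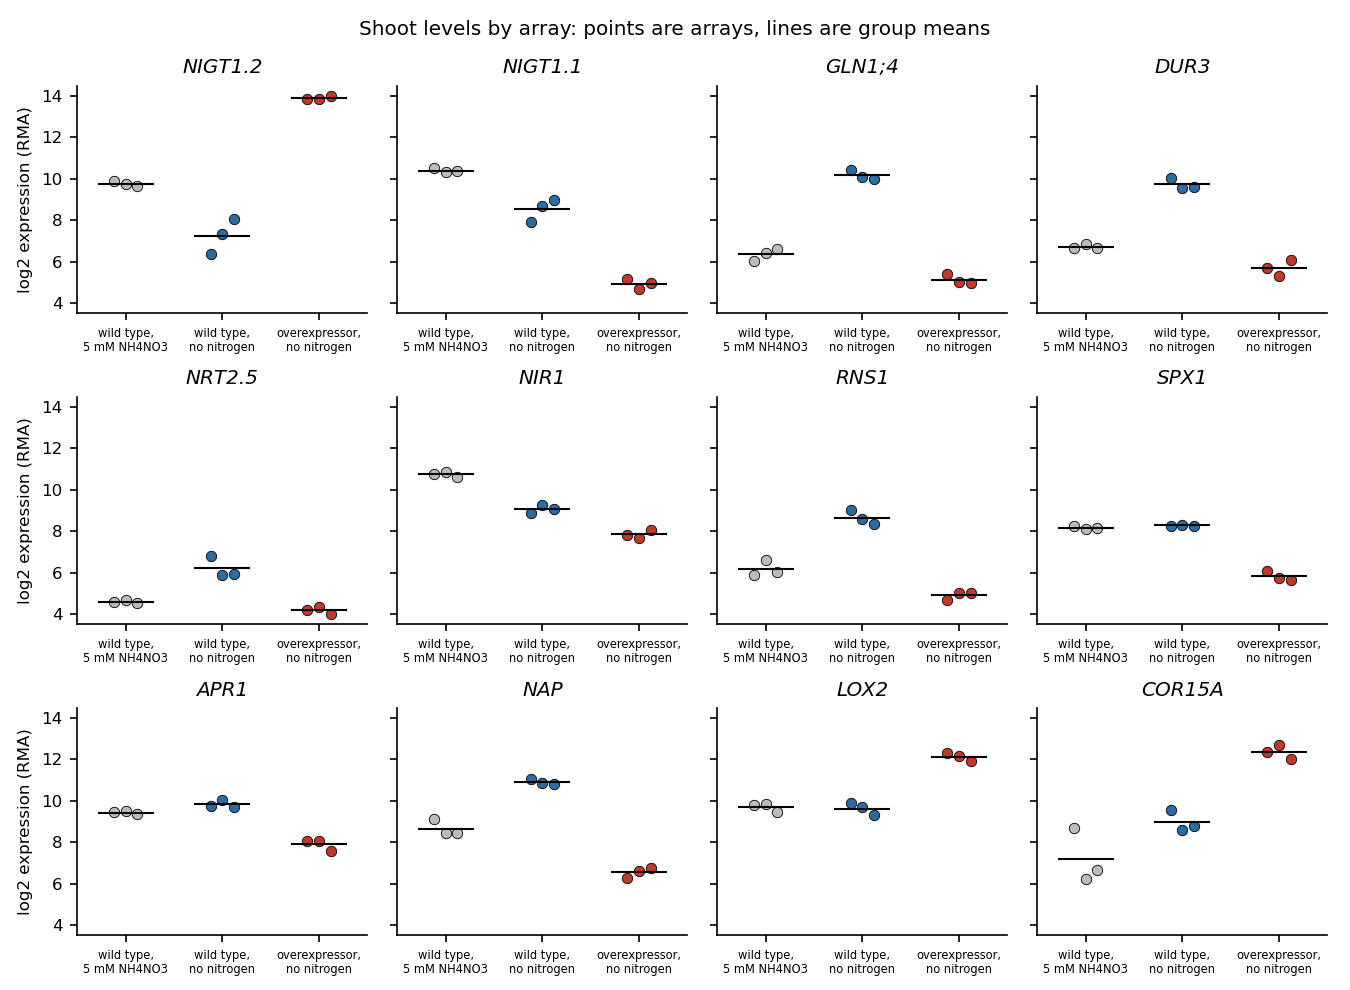
Log2 RMA levels (y axis) of 12 genes on each shoot array (points) of sufficient wild type (grey), starved wild type (blue) and the starved overexpressor (red), with group means as lines. NIGT1.2 lies near 13.9 in the overexpressor, GLN1;4 and DUR3 fall below both wild type groups there, and LOX2 and COR15A lie above both.

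Most regulators of nitrogen responses were not called: 3 of 13 were lower (23.1%, against 20.7% of all probe sets tested) and 1 higher (7.69%, against 30.6%). The strongest was TGA1, which encodes a bZIP protein acting in nitrate signalling, with 4.99, 5.19 and 5.56 against 8.02, 7.68 and 7.79, a change of -2.58 ± 0.14 (adjusted p = 5.8e-10). Starvation of wild type changed it by 0.32, not called, in a comparison that called 54.1% of probe sets, 27.8% higher and 26.3% lower. NLP2 fell by 0.89 and NRG2 rose by 0.87, while the nitrate-response factors NLP7 and NLP6 had changes of 0.10 each, not called. Among the genes of nitrogen demand signalling, 5 of 10 were lower and 1 higher. CEPDL1 (AT3G62950), a glutaredoxin-type shoot signal, fell by 2.51 to 4.11, 3.85 and 3.68 from 5.87, 6.68 and 6.61, whereas CEPD2 (AT2G47880) lay at 10.80 to 10.92 against 10.81 to 10.86. CEPD1 (AT1G06830) fell by 0.68 and the CEP receptor gene CEPR2 rose by 1.41 ± 0.09. BT5, of the BTB and TAZ domain family, fell by 3.49 ± 0.25.

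Genes of phosphate shortage were lower as a group: 17 of 28 tested were lower and 2 higher, 9 of them by at least 1, with a median of -0.64. SPX1, an inhibitor of the phosphate regulator PHR1, had levels of 6.10, 5.74 and 5.67 against 8.27, 8.31 and 8.27 in starved wild type, a change of -2.45 ± 0.14 (adjusted p = 1.0e-09). Starved and sufficient wild type differed little in SPX1 (0.11, not called), so the overexpressor alone stood apart there. RNS1, a ribonuclease induced by phosphate shortage, measured 4.68, 5.03 and 5.04 against 9.03, 8.59 and 8.34, a change of -3.74 ± 0.20 (adjusted p = 4.2e-10). The acid phosphatases PAP17 (-2.13), PAP12 (-1.22) and PAP10 (-1.11), the glycerol-3-phosphate permease G3PP1 (-1.71) and the lipid remodelling enzymes MGD3 (-1.59), MGD2 (-1.38) and SQD2 (-0.92) fell too. SPX4 fell by 1.41 and SPX2 by 0.87. PHO2 (-0.75), whose product removes phosphate transporters, also fell, and NLA, a ubiquitin ligase of the same process, rose by 0.60. PHR1 itself had a change of 0.08, not called.

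In the sulfur list 8 of 13 were lower and 2 higher (median -0.62). The sulfate-reducing enzymes APR1 (-1.92 ± 0.14), APR3 (-1.4) and APR2 (-0.62), the glutathione-degrading GGCT2;1 (-1.86) and the shortage marker LSU2 (-1.26) fell. APR1 lay at 8.06, 8.07 and 7.59 in the overexpressor against 9.73, 10.05 and 9.71. The vacuolar sulfate exporters SULTR4;1 and SULTR4;2 rose by 0.50 and 0.47, and the uptake carrier SULTR1;2 had a change of -0.03, not called. Of 12 iron genes 7 were higher (58.3%, against 30.6% of all probe sets tested) and 4 lower (33.3%, against 20.7%). Their median was 0.59. IMA1 (AT1G47400), a peptide of iron deficiency, rose to 7.36, 6.75 and 6.67 from 5.16, 5.16 and 4.79, by 1.89 ± 0.17 (adjusted p = 1.5e-07). BHLH101 (1.22), the ferric reductase FRO3 (0.94), the phloem iron transporter OPT3 (0.93), BTS (0.74) and PYE (0.59) rose with it. The nicotianamine synthases NAS3, NAS1 and NAS4 fell by 1.71, 1.48 and 0.57, and the ferritins FER3 and FER4 went in opposite directions, at 0.59 and -0.43.

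Senescence regulators were strongly reduced. Of 14 NAC factors tied to leaf senescence, 12 were lower and 1 higher, 8 of the 12 by at least 1, with a median of -1.44. NAP, a promoter of leaf senescence, had levels of 6.29, 6.61 and 6.77 against 11.05, 10.85 and 10.80 in starved wild type, a change of -4.34 ± 0.17 (adjusted p = 1.6e-11), and sufficient wild type held it at 9.12, 8.43 and 8.43. ORE1, another senescence activator, fell to 7.2, 7.67 and 7.49 from 9.71, 9.45 and 9.76, by 2.19 ± 0.20. RD26 (-2.76), NAC019 (-2.74), NAC055 (-2.40), NAC102 (-1.71) and ATAF1 (-1.50) also fell, and NAC087 rose by 0.56. Of the genes that carry senescence out, 9 of 13 for chlorophyll breakdown and senescence-associated proteins were lower and none higher, with a median of -0.39. The sugar transporter SAG29 fell by 1.72, and the chlorophyll-degrading NYE1 by 0.59, NYC1 by 0.39 and PAO by 0.23. SAG13 had a change of 0.32 ± 0.35, with wild type values from 7.96 to 9.95. Of 12 autophagy genes 6 were lower and none higher, led by ATG8F (-0.70).

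Most photosynthesis genes were lower, the majority of them by less than 1. In light harvesting and the photosystems 35 of 37 genes were lower and none higher (median -0.46), in the Calvin cycle and photorespiration 19 of 21 (median -0.37), and in chlorophyll synthesis 14 of 21 with 1 higher (median -0.36). The mean level of the light harvesting list was 12.07 to 12.35 on the overexpressor arrays and 12.66 to 12.82 on those of wild type. In these whole shoots, fewer green cells and less RNA per cell cannot be told apart. PSAD2, a subunit of photosystem I, fell by 1.77, with 11.29, 10.96 and 10.78 against 12.51, 12.90 and 12.93, beside -0.42 for its copy PSAD1. LHCB2.3 (-1.57), LHCB3 (-1.04), the fructose bisphosphatase HCEF1 (-1.76) and the glycine decarboxylase gene GLDP1 (-1.23) followed. In chlorophyll synthesis the regulated steps CHLH (-1.27), HEMA1 (-1.07) and GUN4 (-1.04) fell most, while PORB (-0.07) and HEMB1 (0.07) were not called and GSA1 rose by 0.19. SIGE, a sigma factor of plastid transcription, fell by 3.06 ± 0.12, from 8.81, 8.87 and 8.58 to 5.76, 5.68 and 5.62.

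Transcription factors of rapid stress responses were among the strong decreases. In the ERF and DREB family 20 of 41 were lower and 9 higher (median -0.42), 14 of the 20 by at least 1 against 1 of the 9. ERF6, an ethylene-response factor of stress and growth arrest, had levels of 6.89, 7.01 and 7.01 against 10.19, 10.47 and 10.44, a change of -3.40 ± 0.13 (adjusted p = 9.0e-12). ERF5 (-3.06), RAV2 (-2.83), ERF11 (-2.52), ERF2 (-2.49) and ERF13 (-2.41) fell with it, and RAP2.1 was the one to rise by more than 1 (1.04). RRTF1, a redox-responsive factor outside the family's symbol pattern, lay at 4.03, 4.06 and 4.02 against 7.48, 7.61 and 7.57. WRKY factors divided, with 13 of 43 lower (30.2%, against 20.7% of all probe sets tested) and 10 higher (23.3%, against 30.6%). Of these, 7 of the lower ones and 1 higher one passed 1. WRKY40 measured 7.25, 7.18 and 7.43 against 10.62, 11.11 and 10.92, a change of -3.60 ± 0.19 (adjusted p = 4.7e-10). WRKY33 (-2.44), WRKY46 (-2.04) and WRKY53 (-1.98), factors of defence and senescence, fell, and WRKY54 rose by 1.16.

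CIPK20, a kinase regulated by CBL calcium sensors, had 5.07, 4.54 and 4.75 against 8.61, 8.94 and 9.03, a change of -4.07 ± 0.16 (adjusted p = 1.2e-11), and sufficient wild type was higher still at 9.39, 9.74 and 9.72. In its family 9 of 21 were lower, 2 higher and 10 not called, with a median of -0.01, and the next was SR1 (AT5G01820) at -2.82. Calmodulin-like genes were lower in 5 of 9 and higher in 1. CML38 fell by 2.83 and CML11 rose by 1.42. In the MYB family 22 of 46 were lower and 8 higher, with MYB51, an activator of indole glucosinolate synthesis, at -2.16 and MYB77 at -1.97. Of 31 heat shock genes 7 were lower (22.6%, against 20.7% of all probe sets) and 5 higher (16.1%, against 30.6%).

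Of 29 jasmonate genes 13 were lower and 8 higher (median -0.27). They are described by role, in a grouping made after the values were seen. The oxylipin pathway opens with lipoxygenases, and LOX2, the main leaf enzyme, rose to 12.28, 12.16 and 11.92 from 9.90, 9.68 and 9.29, by 2.49 ± 0.14 (adjusted p = 5.5e-10). Of 11 synthesis genes 5 were higher and 2 lower (median 0.35). LOX6 (0.87), AOC4 (0.81), OPR3 (0.71) and ACX1 (0.56) rose, LOX4 (-2.12) and OPCL1 (-0.56) fell, and AOS (0.01) was not called. All 4 transcription factors of the list fell (median -2.52). ORA47, an activator of jasmonate synthesis genes, had 5.28, 5.19 and 5.14 against 9.68, 9.82 and 9.35, a change of -4.41 ± 0.30 (adjusted p = 7.1e-09), and ORA59 fell by 2.80, ERF1 by 2.24 and MYC2, the central activator, by 1.62. Of the 10 JAZ repressors, whose genes respond to jasmonate, 5 were lower and 2 higher. JAZ7 fell by 3.67 ± 0.21, JAZ8 by 2.39 and JAZ1 by 2.06, while JAZ3 rose by 0.95 and JAZ10 (-0.22) was not called. Of 3 jasmonate breakdown enzymes 1 was lower, 1 higher and 1 not called. The defensin PDF1.2A, whose probe set may also read its near copies, fell by 3.04 ± 0.28.

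Salicylic acid genes were called at shares near those of all probe sets tested. Of 17, 4 were lower (23.5%, against 20.7%) and 5 higher (29.4%, against 30.6%). PR2, a glucanase of the pathogenesis response, rose by 2.74 ± 0.41 (adjusted p = 4.1e-05), with 10.93, 11.06 and 11.79 against 9.09, 8.77 and 7.71. PR5 (1.15), WRKY54 (1.16) and EDS5 (0.92) rose, the activators CBP60G (-1.34) and WRKY70 (-1.24) fell, and PR1 was not called at 0.39 ± 0.31. UGT76B1, a glucosyltransferase acting on immune signals, rose by 1.88.

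Of 19 cold and dehydration genes 5 were lower (26.3%, against 20.7% of all probe sets tested) and 8 higher (42.1%, against 30.6%), with a median of 0.23. They too were grouped by role after the values were seen. All 4 transcription factors fell: ZAT10 by 2.99, ZAT12 by 2.15, CBF1 by 1.35 and CBF2 by 1.15. Among 14 protective proteins 8 were higher and 1 lower (median 0.68). COR15A, a chloroplast protein that protects membranes in the cold, had 12.34, 12.70 and 12.03 against 9.56, 8.59 and 8.78, a change of 3.38 ± 0.44 (adjusted p = 1.0e-05). Its values in sufficient wild type ranged from 6.25 to 8.70, of which the highest overlapped starved wild type and none reached the overexpressor. COR15B (2.1), RD29A (1.83), ERD10 (0.96), COR47 (0.92) and RCI2A (0.71) rose, and RAB18, a dehydrin, fell by 1.4. Signals of COR15A and COR15B, and of CBF1 and CBF2, can mix, since the genes are near copies. Of 12 abscisic acid signalling genes 3 were lower (25%, against 20.7%) and 1 higher (8.33%, against 30.6%), with the receptor PYL4 at 0.93 and the phosphatase ABI1 at -0.85.

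**Figure D3:**
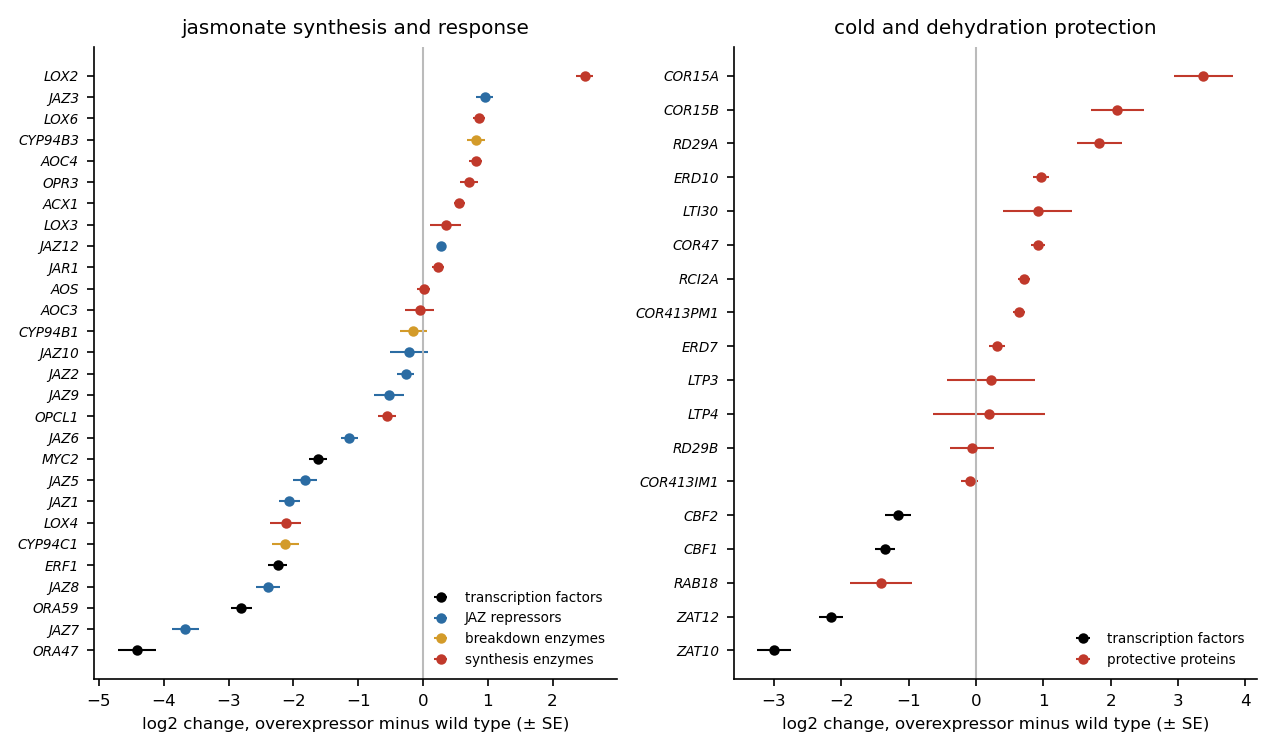
Log2 change in the overexpressor against wild type, both starved (points, with bars for the SE of the fit), for tested members of the jasmonate and the cold and dehydration lists, coloured by role. Transcription factors lie left of 0 in both panels, from -4.41 to -1.15, whereas LOX2 (2.49) and COR15A (3.38) lie farthest right.

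Of 25 clock genes 12 were lower and 7 higher (median -0.07). CCA1, a core morning factor, had levels of 5.43, 4.99 and 5.02 against 7.91, 8.19 and 7.93, a change of -2.86 ± 0.15 (adjusted p = 2.7e-10). LNK1 (-1.53), LNK2 (-1.32), RVE4 (-1.19) and LHY (-0.57) fell too. JMJD5, an evening-phased demethylase, rose to 9.36, 9.75 and 9.78 from 6.80, 6.47 and 6.89, by 2.91 ± 0.14 (adjusted p = 1.7e-10). COR27 (2.15), PRR3 (1.37), COR28 (AT4G33980; 0.94), TOC1 (0.78) and ELF4 (0.74) rose, and PRR5 (-0.07) and GI (0.17) were not called. The labels give no hour of harvest for any group, so a difference in sampling time cannot be told apart from the genotype.

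Cytokinin and flavonoid genes that were called were lower. Of 15 cytokinin genes 9 were lower and none higher (median -0.43). The response regulators ARR16 (-2.12), ARR7 (-0.93), ARR5 (-0.93) and ARR9 (-0.85), the activating enzymes LOG1 (-1.36) and LOG7 (-1.35) and the synthesis gene IPT3 (-0.53) fell. In the flavonoid list 6 of 17 were lower and none higher. The repressor MYBL2 fell by 2.41 ± 0.13 and the anthocyanin activator PAP2 by 1.64, from 9.77, 9.21 and 8.77 to 7.27, 8.04 and 7.53. Enzymes of anthocyanin synthesis were not called, such as DFR at 0.41 ± 0.28 and CHS at 0.07, and their wild type values were widely spread, from 6.99 to 8.79 for DFR.

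Genes of cell wall remodelling included several increases of more than 1. Of 22 xyloglucan endotransglucosylases, which cut and rejoin wall polymers, 10 were higher (45.5%, against 30.6% of all probe sets tested). Another 7 were lower (31.8%, against 20.7%), and the median was 0.15. By at least 1, 6 were higher and none lower. XTH25 lay at 8.52, 7.31 and 7.99 against 5.55, 5.62 and 5.61, a change of 2.35 ± 0.22 (adjusted p = 2.8e-07), and XTH15 (2.00), XTH33 (1.59), XTH9 (1.25), XTH16 (1.19) and XTH6 (1.07) also rose. THE1, a receptor kinase that monitors the wall, rose by 1.93. Expansins were lower in 7 of 20 (35%, against 20.7% of all probe sets tested) and higher in 3 (15%, against 30.6%), with EXPA8 at -3.27 and EXPA16 at 1.76. The sugar exporter SWEET10 fell by 2.87 and SWEET4 rose by 1.36. UMAMIT17, of a family of amino acid exporters, fell by 2.77, and UMAMIT12 and UMAMIT14 by 1.95 and 1.89. The galactosidase BGAL4, in the sugar starvation list, fell by 3.03. MIOX2, an inositol oxygenase, rose by 2.33 ± 0.40 with scattered values (9.85, 8.28 and 9.25 against 6.27, 6.92 and 7.18) that overlapped the 9.14 to 10.91 of sufficient wild type.

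**Figure D4:**
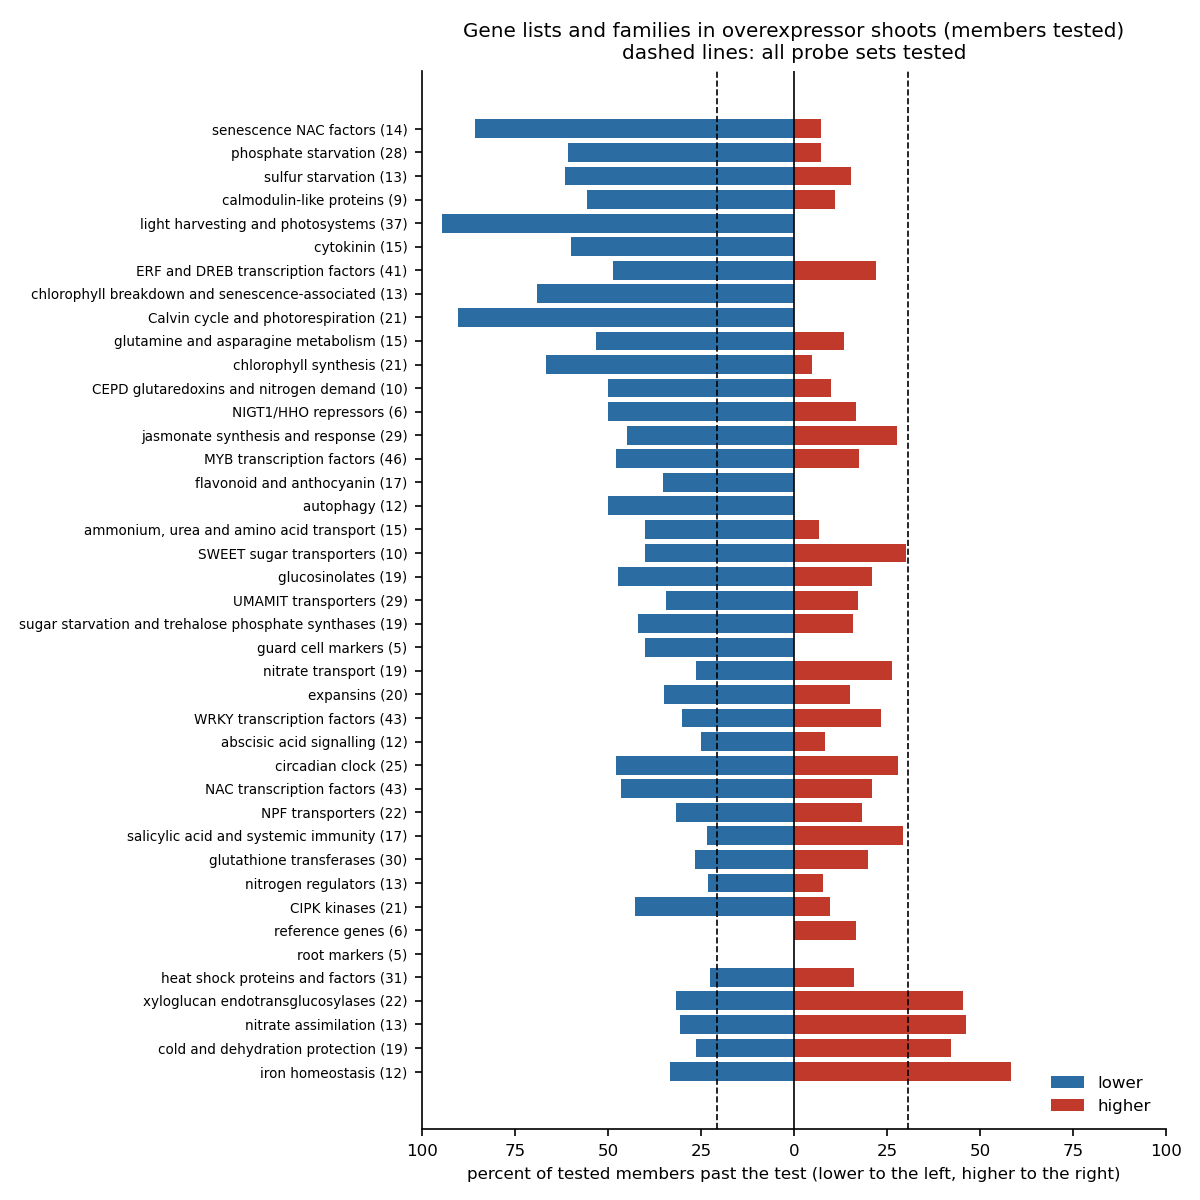
Percent of tested members called lower (blue, left) and higher (red, right) in each gene list or family with at least 5 tested members, ordered by median change, with members tested in brackets. Dashed lines mark all probe sets tested, 20.7% lower and 30.6% higher. Light harvesting, Calvin cycle and senescence NAC genes reach farthest left and iron homeostasis farthest right.

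Against sufficient wild type, the genes above fell into separate kinds, given here gene by gene because the overexpressor arrays are shared with the comparison above. This comparison called 64.4% of probe sets, 36.8% higher and 27.6% lower. Several genes that starvation had raised in wild type lay below the sufficient level in the starved overexpressor. The difference from sufficient wild type was -1.24 ± 0.16 for GLN1;4, -1.01 for DUR3, -1.27 for RNS1, -2.1 for NAP and -1.01 for ASPGB1, all past the test. ORE1 was lower by 0.65. AMT1;1 (-0.17) and NRT2.5 (-0.40), also raised by starvation, did not pass. Both groups had NRT2.5 levels near the bottom of the scale. GLN1;1 (1.15), MGD3 (1.59) and PAP2 (3.16) remained above it. The nitrate-responsive genes NIGT1.1 (-5.45), NIA1 (-3.03) and NIR1 (-2.88) were farther from the sufficient level than in starved wild type, whose differences were -1.88, -2.43 and -1.66.

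The estradiol-inducible AtNIGT1.2-VP line shares no array with the overexpressor comparison, but its plants stood on 5 mM NH4NO3. No wild type received estradiol, so an effect of estradiol itself cannot be told apart from induction of the gene. Its induction called 3792 probe sets higher (23.8%) and 4056 lower (25.5%), together 49.3%. AtNIGT1.2 itself rose by 2.94 there. More genes moved the same way in both comparisons than in opposite ways. Of 3176 genes lower in the overexpressor, 636 were higher with AtNIGT1.2-VP (20.0% of the first list and 17.9% of the 3547 in the second), where 23.5% of all genes tested were higher. Another 1350 were lower in both (42.5% and 34.4% of the lists), where 26.0% of all genes tested were lower. Of 4604 genes higher in the overexpressor, 1490 were higher in both (32.4% and 42.0%) and 816 were lower with AtNIGT1.2-VP (17.7% and 20.8%). Among changes of at least 1, 65 of 627 lower genes were higher with AtNIGT1.2-VP (10.4% of these and 11.9% of the 548), where 3.63% of all genes tested were higher by that much. Another 62 were lower in both (9.89% and 29.8% of 208), where 1.38% of all genes tested were lower by that much. Of 275 genes higher by at least 1, 50 were higher in both (18.2% and 9.12%) and 4 were lower with AtNIGT1.2-VP (1.45% and 1.92%).

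Several of the strongest decreases were reversed in that line. GLN1;4 rose from 7.09, 7.05 and 7.28 without estradiol to 10.27, 10.65 and 10.29 with it, by 3.26. RNS1 rose by 5.42, PDF1.2A by 5.25, DUR3 by 4.92 and PAP17 by 4.01 with AtNIGT1.2-VP. NAC019 (-2.74 in the overexpressor and 2.01 with AtNIGT1.2-VP), ORA59 (-2.80 and 1.97), JAZ8 (-2.39 and 1.94) and WRKY46 (-2.04 and 2.46) were reversed as well, and so were AMT1;1 (-1.55 and 1.59), NRT2.5 (-2.02 and 1.41) and SPX1 (-2.45 and 1.82). NAC019 and ORA59 rose from uninduced levels that were below sufficient wild type (-1.60 and -1.42). Their means with estradiol were 8.18 and 8.90, beside 7.77 and 8.35 in sufficient wild type. For NAC019 the sufficient wild type values were scattered, at 9.15, 7.03 and 7.12, beside 7.93, 8.39 and 8.21 with estradiol. PS2, a phosphate-shortage phosphatase, had a change of 0.03 in the overexpressor, not called, and rose by 5.26 with AtNIGT1.2-VP, and NIGT1.4 (-0.12) rose by 2.99. Others did not reverse. ORA47 (-4.41 and -2.59), CIPK20 (-4.07 and -1.71) and EXPA8 (-3.27 and -1.76) fell in both, the sulfur gene LSU2 (-1.26 and -1.09) too, and NIGT1.1 (-3.57) had a change of -0.06 with AtNIGT1.2-VP. In the opposite sense, SAUR63, an auxin-responsive gene of cell elongation, rose in the overexpressor by 1.17 and fell by 1.21, and AT5G47330 rose by 1.74 and fell by 1.02. LOX2 rose in both, by 2.49 and 2.5. Of the 11 jasmonate synthesis genes, 10 were higher with AtNIGT1.2-VP.

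**Figure D5:**
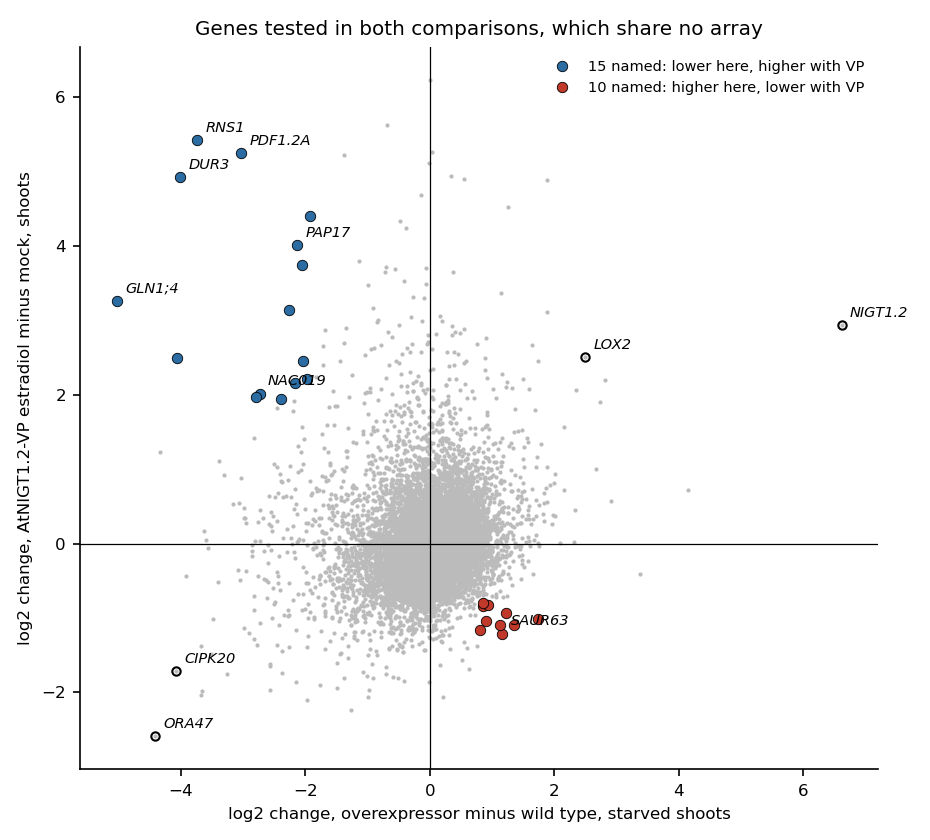
Each grey point is a gene tested in both comparisons, with its log2 change in the starved overexpressor shoots (x) and with AtNIGT1.2-VP induction (y). Blue points are the 15 named genes lower in the first and higher in the second, red points the 10 with the reverse pattern, and open circles 4 further genes. RNS1, DUR3 and GLN1;4 stand in the upper left, and ORA47 and CIPK20 fall in both.

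The uninduced AtNIGT1.2-VP line was set against sufficient wild type to see which genes also differ in another transgenic line without induction. There, 2513 probe sets were lower (15.8%) and 2812 higher (17.7%), together 33.4%. Of the 3176 genes lower in the overexpressor, 846 were lower in the uninduced line (26.6%, and 35.7% of that line's 2370), against 354 higher (11.1%). Of those lower by at least 1, 51 were so in both (8.13% of 627 and 30.4% of 168), where 1.11% of all genes tested were lower by that much in the uninduced line. Of 4604 genes higher in the overexpressor, 1067 were higher in the uninduced line (23.2%, and 40.9% of that line's 2611), where 17.3% of all genes tested were higher. Another 548 were lower there (11.9%). Some clock genes went the same way in both comparisons: CCA1 fell by 2.00 in the uninduced line, while JMJD5 rose by 2.58, COR27 by 1.22 and PRR3 by 1.1. Some groups with more lower than higher members in the overexpressor also had more lower members in the uninduced line. Lower there were 10 of 14 senescence NAC factors (median -0.80), 17 of 29 jasmonate genes (median -0.40) and 19 of 41 ERF and DREB genes (median -0.25), with 0, 0 and 4 higher. ORE1 (-2.02), NAC019 (-1.60) and ORA59 (-1.42) were among them, and UPB1, a regulator of root reactive oxygen, was at -2.96 in the overexpressor and -2.08 in the uninduced line. GLN1;4 was higher by 0.77 in the uninduced line, and DUR3 (-0.21), RNS1 (0.43), NIGT1.1 (0.04) and LOX2 (-0.17) were not called. The uninduced line and sufficient wild type also differed in the age at which they were moved and in the time on the plates, which cannot be told apart from the genotype.

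Roots of the same genotypes were normalized in another table, so their values are set beside the shoot values without a test of the difference. In roots 2658 probe sets were lower (16.7%) and 3412 higher (21.4%), together 38.1%. Of 2766 genes lower in shoots and tested in both tissues, 1186 were lower in roots (42.9%, and 53.1% of the 2235 lower there) and 216 higher (7.81%). Among changes of at least 1, 99 genes were lower in both (19.6% of 504 and 38.2% of 259), where 1.88% of all genes tested in both tissues were lower by that much in roots. DUR3 fell by 3.22 in roots, GLN1;4 by 2.29, NIGT1.1 by 1.93 and SPX1 by 1.65. TGA1 fell by 5.15 in roots beside 2.58 in shoots, and UMAMIT17 by 4.49 beside 2.77. NAP lay at -0.05 in roots, not called, beside -4.34 in shoots. NRT2.4 and NIGT1.4, near the bottom of the shoot scale, fell by 3.80 and 3.03 in roots.

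In the authors' deposited table, their own test of the same arrays gives Benjamini-Hochberg values under 0.05 for 2131 probe sets, 1016 lower and 1115 higher in the overexpressor, and q-values under 0.05 for 5720. The sign of the deposited fold change runs the other way, as wild type minus overexpressor.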

How the data were processed

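Shoot and root RNA of 30 samples had been hybridised to Affymetrix arrays. Per the file headers, the authors deposited log2 values from RMA. MAS5 is the name in the submitters' processing notes, and a version was not given in the sources. The authors' own log2 fold changes, with a p-value, a q-value and a Benjamini-Hochberg value for each probe set, were deposited beside them. Probe sets were named through the deposited locus column and symbols of TAIR10.1: 21452 had 1 gene, 1110 several and 184 none, and only the first kind was named. Where a gene had several such probe sets, the one of highest mean level stood for it.

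A model with 1 mean per group was fitted with limma 3.58.1 (R 4.3.3) to the 15 shoot arrays, with an intensity trend, and p-values were adjusted over the 15922 probe sets whose mean lay at or above the 30th percentile. The root table was fitted alone. The fit was tested on simulated data. Depth does not apply to arrays; their number limits the precision, and an exact test of 3 against 3 cannot go under 0.10.

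The members and lists were chosen with earlier results of these data known. The 31 lists hold 556 loci, of which 505 had a probe set and 457 were tested, and 13 families were taken by symbol. Named genes were the 25 lowest and 25 highest changes without overlap, up to 8 members per list by adjusted p, the NIGT1, NRT2, NIA and NIR1 genes, 15 and 10 genes opposite with AtNIGT1.2-VP and 10 like the uninduced line; further ones were chosen after their values were seen. Replicate numbers did not pair: deviations of equal numbers correlated at -0.316, -0.035 and -0.074 in shoots.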

Additional observations from a re-analysis of the deposited data

Results flagged for a closer look

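For 5 named genes, all 3 overexpressor values lay to one side of wild type in shoots and to the other side in roots, and the change passed the test in both tissues. Opposite calls were not limited to these genes. Of all genes tested in both tissues, 216 of 2766 lower in shoots were higher in roots (7.81%). Of 4371 higher in shoots, 245 were lower in roots (5.61%). The difference between the tissues was not tested, since their tables were normalized separately. ERF6 had a log2 change of -3.40 in shoots and 0.66 in roots. MPL1, a lipase gene, had -1.74 and 0.27, and the nitrate reductase NIA2 had -0.86 and 0.17. The heat shock gene AT5G51440 had 1.35 and -0.67, and TSA1, a gene of the endoplasmic reticulum body, had 2.16 and -0.79. LSH6 had the same pattern of values (1.89 and -0.12) without passing in roots, and AT4G17470 and COR15B had it with root levels below the filter. Groups of 3 arrays were too small to look for single outlying arrays.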

How the results depend on the processing

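The 4 counts of the comparison and the 3 overlap counts stayed within 1.5 times their value with only the 6 arrays fitted (comparison counts), no filter, a stricter filter, no intensity trend, robust moderation, renewed quantile normalization, median-centred arrays, the series' value table and the replicate block. With the replicate block 4669 probe sets were higher and 3166 lower. Tested against a log2 change of 0.5, 504 were higher and 847 lower, and the overlaps were 80 (lower here, higher with AtNIGT1.2-VP), 104 (lower in both) and 49 (lower here and in the uninduced line). Fewer calls there follow from the stricter test. By the authors' Benjamini-Hochberg values, 1115 were higher, 1016 lower and 131 higher by at least 1. The cause was not tested. Counts within lists and families, 88 with lower and higher members counted apart, were less stable. By the authors' values 68 of them left the range of 1.5 times, against 0.5 it was 59, and with the stricter filter 20. Under each other setting at most 6 did so. Leaving out each of the 6 compared arrays in turn gave 4137 to 4550 higher and 2910 to 3143 lower. By at least 1, 282 to 325 were higher and 631 to 686 lower. The overlaps were then 556 to 596, 1182 to 1347 and 762 to 855. No array of the AtNIGT1.2-VP line or of sufficient wild type was left out, so these ranges do not cover that side of the overlaps. Single genes were followed for 90 of the named genes: those with extreme changes, the NIGT1, NRT2, NIA and NIR1 genes, and those chosen by the AtNIGT1.2-VP and uninduced lines. Genes named only as members of a list or family were not followed singly. Over these 90 genes and 17 alternatives, 1452 of 1507 values kept their side of the threshold. Another 46 lost the call, 30 of them by the authors' values and 9 against 0.5, while 9 gained one and none reversed. The 30 included AtNIGT1.2 itself, with an authors' Benjamini-Hochberg value of 0.0515, PR2 (0.0632), NRT2.5 (0.0795), XTH25 (0.0987), HHO6 (0.135) and SLAH3 (0.1495). The 7 losses under the remaining settings were HHO4 and NIA1, and the gains were HHO5, NRT2.1 and NRT2.4. Promoter motifs were not analysed here. Levels near the bottom of the scale limit NIGT1.3, NIGT1.4 and NRT2.4 in shoots. They also limit NRT2.5 in the overexpressor and in sufficient wild type.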
